A study of Mus musculus with 9 samples.

Results

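Angiogenic growth factors are secreted proteins that start and direct the growth of blood vessels. Vegfa, Vegfb and Pgf belong to the vascular endothelial growth factor (VEGF) family, which acts on endothelial cells through the receptors Flt1 and Kdr with the neuropilins Nrp1 and Nrp2 as co-receptors. Prok2 encodes prokineticin 2, a small peptide that bone marrow-derived myeloid cells make and that signals through Prokr1 and Prokr2. Adm encodes adrenomedullin, a vessel-dilating peptide whose receptor is Calcrl paired with a RAMP protein, and Hbegf encodes heparin-binding EGF-like growth factor, a membrane-anchored ligand of Egfr and Erbb4 that is shed by metalloproteases. Neutrophils that enter tumors are known as a source of some of these factors, and Vegfa and Adm are textbook targets of the hypoxia-inducible transcription factor HIF-1.

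The levels of these 6 genes, chosen by symbol, were compared between neutrophils of 3 body compartments among the 46517 genes of the table. The mice were C57BL/6 animals 27 days after orthotopic transplantation of pancreatic ductal adenocarcinoma cells, called OT mice. The transplanted mouse line had been made to express luciferase, and all 9 libraries came from tumor-bearing animals. Neutrophils were sorted as live CD45+ cells without CD3, B220 or NK1.1 and with Ly6G and Ly6C, and each of 3 libraries per compartment was made from the pooled cells of several OT mice. The labels call the bone marrow cells Ly6G.hi and the blood and tumor cells Ly6G+, so the difference in gate and the difference in compartment cannot be told apart.

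The deposited log2 FPKM values held steps of whole reads, and reads were recovered for all genes, with 4580807 to 7949367 reads per library. Levels are given as reads, as RPM (reads per 1000000 of the authors' scaled library size), or, to compare genes, as RPM per exon kilobase. The deposited FPKM divided by the genomic span for 84.5% of the 46005 genes matched to the annotation, so genes with long introns had low FPKM whatever their read number. On that scale Prok2, Adm and Hbegf passed the filter for the limma fit (log2 FPKM over 0 in at least 3 libraries), and Vegfa, Vegfb and Pgf did not. Adm and Hbegf passed only through the tumor libraries, so they had to differ, and the number that passed is no support for a trend. Vegfa, Vegfb and Pgf were tested with limma-voom on recovered reads, which took in the genes that reached 5 reads in a library and so all 6 members. In bulk RNA of this kind, fewer cells of a type and less RNA per cell cannot be told apart.

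The sorted populations carried neutrophil genes in every library, with none of 12 markers at 0. Their summed level was 127642 to 142254 RPM in bone marrow, 41833 to 44174 RPM in blood and 15296 to 19299 RPM in tumor. The bone marrow sum rested most on the granule genes Ngp, with 244196 to 247191 reads per library, and Ltf, with 233192 to 243442. Csf3r and Cxcr2 had more reads in blood, with 52750 to 72754 and 27073 to 46509 against 13802 to 18048 and 18992 to 21428 in bone marrow. Markers of tumor epithelium, fibroblasts and acinar cells moved with the tumor group, while those of macrophages, platelets, lymphocytes and red cells were highest in blood. The 6 lymphocyte markers summed to 71.45 to 124 RPM in blood and 4.9 to 8.1 RPM in tumor. The 4 red cell markers summed to 154 to 348 RPM in blood and 5.6 to 85.4 RPM in tumor. The 12 tumor epithelium markers summed to 2812 to 5304 RPM in tumor with none at 0, to 10.4 to 14.2 RPM in bone marrow with 1 to 7 at 0, and to 25.6 to 184 RPM in blood with 0 to 6 at 0. The 9 fibroblast markers summed to 1127 to 1271 RPM in tumor with none at 0, 6.0 to 12.6 RPM in bone marrow with 1 to 6 at 0, and 1.9 to 7.1 RPM in blood with 4 to 7 at 0. The 7 acinar markers summed to 605 to 2357 RPM in tumor and to at most 10.4 RPM elsewhere, with 1 to 4 at 0 in each library. The 9 macrophage markers were at 509 to 768 RPM in tumor, 536 to 583 RPM in bone marrow and 1672 to 1859 RPM in blood, with at most 1 at 0. The 8 endothelium markers were at 86.2 to 125 RPM in tumor with none at 0, 102 to 151 RPM in blood with 3 to 4 at 0 and 16.7 to 24.4 RPM in bone marrow with 2 to 4 at 0. In blood that sum was mostly Vwf, which platelets also carry, with 315, 602 and 305 reads, and Pecam1, with 138, 235 and 169. The other 6 endothelium markers had at most 2 reads each in a blood library and had more reads in every tumor library, such as Kdr with 48, 44 and 51 and Emcn with 29, 44 and 73. The part of these other cells in the results below was not tested.

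**Figure D1:**
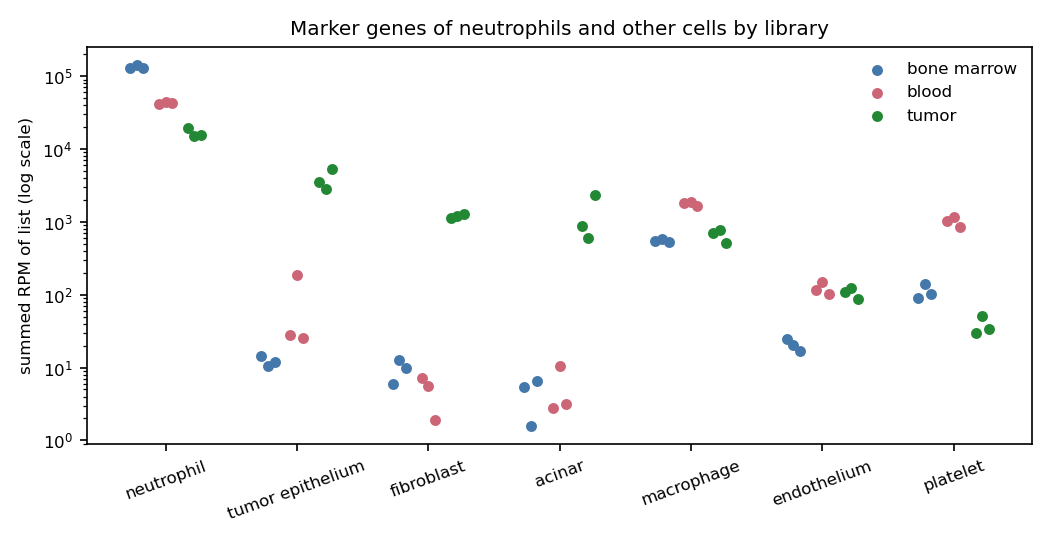
Summed RPM (log axis) of 7 lists of marker genes in each library, with 1 point per library and 3 libraries per compartment. The summed neutrophil markers were highest in bone marrow, tumor epithelium, fibroblast and acinar markers were highest in tumor, and the blood 2 library reached 184 RPM of tumor epithelium markers.

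The upstream bases of Prok2, the gene highest in bone marrow, are shown beside those of Adm, Vegfa and Pgf, which were highest in tumor. Vegfb, also highest in tumor, is given by its matches only. Each stretch is the 250 bases before a RefSeq transcript start on GRCm38.p6, written 5′ to 3′ on the strand of the gene. Capitals mark matches on either strand to ACGTG or GCGTG (the core of the hypoxia response element), TGANTCA (AP-1), TGACGTCA (CRE), GGGCGG (Sp1 box), GCGNGGGCG (EGR) or TTGCNNAA (C/EBP), and matches can overlap. Positions are those of the first base of a match, with -1 as the last base before the start. Prok2 lies at chr6:99726393-99726642, minus strand, Adm at chr7:110627407-110627656, plus strand, Vegfa at chr17:46032378-46032627, minus strand, and Pgf at chr12:85177314-85177563, minus strand.
Prok2: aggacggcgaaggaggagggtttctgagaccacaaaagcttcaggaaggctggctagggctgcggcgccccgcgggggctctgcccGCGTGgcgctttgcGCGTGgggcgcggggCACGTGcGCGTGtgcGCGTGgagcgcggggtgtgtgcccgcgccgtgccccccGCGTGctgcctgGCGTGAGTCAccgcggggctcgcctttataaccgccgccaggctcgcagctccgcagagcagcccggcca
Adm: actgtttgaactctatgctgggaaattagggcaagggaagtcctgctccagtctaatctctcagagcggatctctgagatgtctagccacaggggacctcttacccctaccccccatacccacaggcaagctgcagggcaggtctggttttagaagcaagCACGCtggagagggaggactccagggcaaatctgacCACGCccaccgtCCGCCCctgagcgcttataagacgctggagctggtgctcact
Vegfa: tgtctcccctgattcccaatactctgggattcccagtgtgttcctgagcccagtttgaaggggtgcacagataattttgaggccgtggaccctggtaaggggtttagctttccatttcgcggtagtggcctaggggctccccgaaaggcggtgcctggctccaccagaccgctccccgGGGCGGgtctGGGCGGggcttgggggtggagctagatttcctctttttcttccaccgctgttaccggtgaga
Pgf: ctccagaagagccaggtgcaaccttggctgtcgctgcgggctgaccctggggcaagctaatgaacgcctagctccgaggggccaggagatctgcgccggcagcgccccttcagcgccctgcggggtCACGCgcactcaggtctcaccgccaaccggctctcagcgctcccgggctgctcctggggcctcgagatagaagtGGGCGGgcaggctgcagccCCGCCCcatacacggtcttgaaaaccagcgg

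The stretch of Prok2 had a GC content of 73.6% and held 6 GCGTG cores, with ACGTG on both strands of a palindrome at positions -135 and -134 and 1 TGANTCA at -67 that overlaps a GCGTG. Adm held 2 GCGTG cores, at -90 and -54, and 1 GGGCGG at -42. Pgf held 1 GCGTG at -124 and GGGCGG at -50 and -31, while a second listed Pgf start held no match. The first listed Vegfa start had GGGCGG at -72 and -62 and no letters of the hypoxia core in this window, while a second listed start held GCGTG at -218 and ACGTG at -211. The bases before that second start, at chr17:46025164-46025413, lie inside the annotated span of Vegfa and so not upstream of the gene. Those of both Pgf starts also lie inside the annotated span of Pgf. Vegfb held GCGTG at -237 and -81, GGGCGG at -180, -121, -115 and -104, and GCGNGGGCG at -120. Among 32851 RefSeq promoters, 28.16% held GCGTG, 16.57% ACGTG, 32.74% GGGCGG, 6.75% TGANTCA and 4.7% GCGNGGGCG in the same 250 bases. A match is a description of letters and not a site, and 5 of the 6 genes had an entry.

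The 6 genes followed 3 patterns across the compartments. Hbegf, Adm and Pgf were at or near 0 reads in bone marrow and were higher in tumor, Pgf with only 21 to 35 reads per tumor library. Vegfa and Vegfb were low outside the tumor and several times higher in it. Prok2 was highest in bone marrow, and its blood and tumor libraries overlapped. In the limma fit over 7794 genes, 28.1% of all genes tested were higher and 34.5% lower in tumor than in blood, 22.4% higher and 32.9% lower in tumor than in bone marrow, and 20.6% higher and 23.6% lower in blood than in bone marrow. Of the 3 members tested there, Adm and Hbegf were called higher in tumor against both other compartments, Prok2 was called lower in tumor and in blood than in bone marrow, and Hbegf was called higher in blood than in bone marrow. In the limma-voom fit over 17714 genes, 5 of the 6 members were called higher in tumor than in blood, against 33.1% of all genes, and none was called lower, against 21.9%. Against bone marrow, 5 of 6 were called higher in tumor, where 29.3% of all genes were, and 1 was called lower, where 21.0% were. Vegfb, Pgf and Adm reached 5 reads only in tumor libraries, so they had to be higher there to be tested, and these counts of members in tumor are no support for a trend. The same holds for the counts and medians of the lists below, as far as they rest on genes that reached 5 reads only in tumor. Between blood and bone marrow, 1 of 6 was called higher in blood and 1 lower, against 13.8% and 16.4% of all genes.

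**Figure D2:**
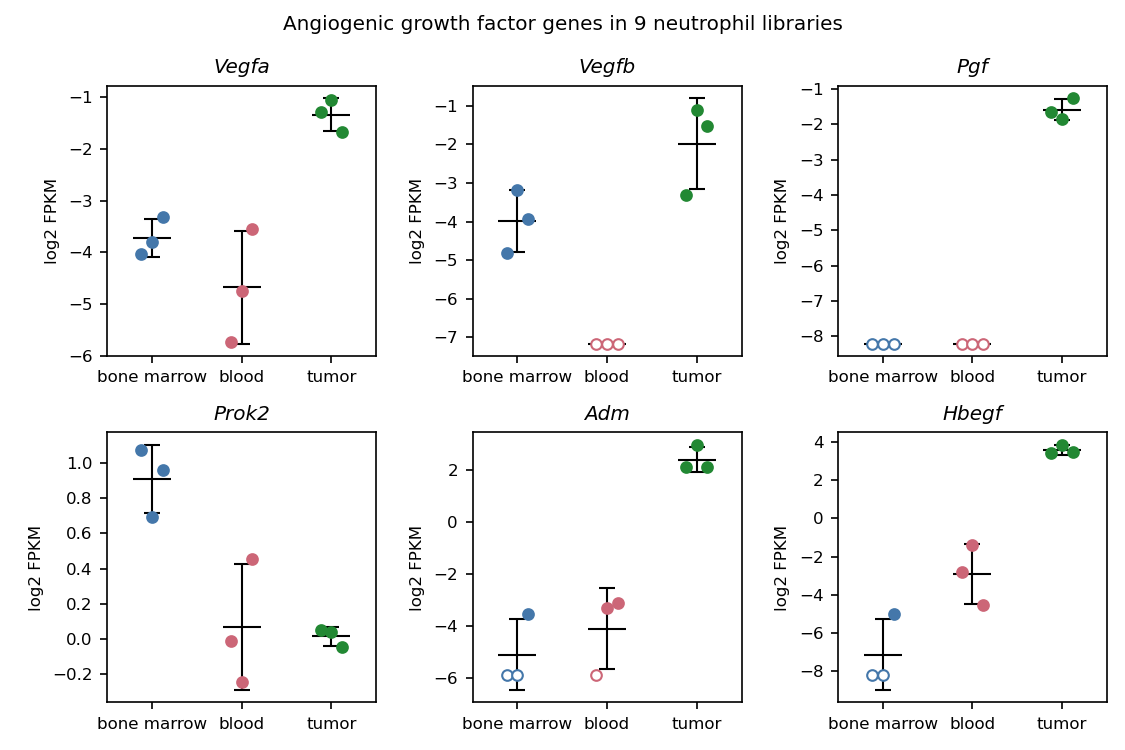
Deposited log2 FPKM of each gene in every library (points, open where no read was recovered), with the group mean (horizontal line) and SD (error bars) over 3 libraries. The tumor libraries lay above all other libraries for Vegfa, Pgf, Adm and Hbegf, and the 3 bone marrow libraries lay above all others for Prok2.

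Hbegf (ENSMUSG00000024486.5, chr18:36504927-36515805, minus strand, GRCm38) was the most abundant of the 6 in tumor. It had 730, 1203 and 966 reads in the tumor libraries, 6, 23 and 2 in blood and 0, 0 and 2 in bone marrow. The groups did not overlap in RPM, and every tumor library was above 117 RPM while the highest blood library had 4.12 RPM. Mean levels were 133 ± 22.9 RPM in tumor, 2.02 ± 1.90 RPM in blood and 0.10 ± 0.17 RPM in bone marrow (SD, n = 3). The summed reads gave a ratio of 61.3 between tumor and blood (95% exact counting interval 43.1 to 90.3) and of 1268 between tumor and bone marrow (351 to 10472), the latter resting on 2 reads. By limma, the log2 fold change was 6.51 (SE 1.06, adjusted p = 0.000972) against blood and 10.76 (SE 1.06, adjusted p = 8.97e-05) against bone marrow. These sizes depend on the constant added, with 5.58 and 6.77 on log2(FPKM + 0.1) and 3.47 and 3.69 on log2(FPKM + 1), and the call was kept in each.

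Hbegf was also called higher in blood than in bone marrow, with a ratio of 20.7 (5.26 to 178) and a limma log2 fold change of 4.24 (SE 1.06, adjusted p = 0.0133). The blood 2 library held 23 of the 31 blood reads, and it was also the library with 1028 reads of tumor epithelium markers, where the other blood libraries had 110 and 120. Per 100 such marker reads, the blood libraries held 5.46, 2.24 and 1.67 Hbegf reads and the tumor libraries 3.29, 5.66 and 2.29. Without blood 2 the log2 fold change was 3.48 with an adjusted p of 0.0424 by limma, and 2.75 with an adjusted p of 0.101 by limma-voom. By limma-voom the call was also lost without blood 1, bone marrow 1 or bone marrow 2 (adjusted p = 0.0503, 0.0918 and 0.0804). The call was lost without a filter on low values (adjusted p = 0.0913) and with log2(FPKM + 1) (log2 fold change 0.22, adjusted p = 0.245).

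Adm (ENSMUSG00000030790.13, chr7:110627661-110629820, plus strand) had 58, 128 and 74 reads in tumor, 0, 1 and 1 in blood and 0, 0 and 1 in bone marrow. Outside the tumor it was thus at or under the floor of 3 reads over a group, and no fold is given between blood and bone marrow. Tumor libraries were at 11.9 ± 4.39 RPM (SD, n = 3), and tumor 2 at 16.9 RPM stood above the other two at 9.35 and 9.32 RPM. The summed reads were 85.2 times higher than in blood (23.3 to 707) and 227 times higher than in bone marrow (40.5 to 9015), on 2 and 1 reads. The limma log2 fold changes were 6.52 (SE 0.93, adjusted p = 0.00049) and 7.51 (SE 0.93, adjusted p = 0.000288). Since few reads lay outside the tumor, these sizes depend on the constant added. They were 4.98 and 5.30 on log2(FPKM + 0.1) and 2.55 and 2.60 on log2(FPKM + 1), with the call kept in each. The antisense gene Gm28863 overlaps the span of Adm without sharing an exon base and had at most 2 reads in any library.

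Pgf (ENSMUSG00000004791.6, chr12:85166635-85177790, minus strand), placental growth factor, a ligand of Flt1, had no read in any of the 6 bone marrow and blood libraries. In tumor it had 21, 22 and 35 reads, or 3.57 ± 0.765 RPM (SD, n = 3). The bound for a group at 0 counts it as 3 reads and leaves out the counting error of the other group. By this bound the tumor level was 17.0-fold higher than that of blood and 22.7-fold higher than that of bone marrow. The adjusted p by limma-voom was 2.05e-05 and 9.72e-06. Its fitted log2 fold changes are not given, since against a group at 0 they depend on the constant added.

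Vegfa (ENSMUSG00000023951.15, chr17:46016993-46032369, minus strand), the main vessel growth factor of the family, was detected in all 9 libraries. It had 39, 56 and 38 reads in tumor, 1, 3 and 6 in blood and 6, 6 and 10 in bone marrow. Every tumor library was above every other library, and blood and bone marrow overlapped. Levels were 6.16 ± 1.32 RPM in tumor, 0.690 ± 0.530 RPM in blood and 1.15 ± 0.315 RPM in bone marrow (SD, n = 3). By limma-voom the tumor level was higher than that of blood by 3.13 on the log2 scale (SE 0.60, adjusted p = 0.00053) and than that of bone marrow by 2.33 (SE 0.52, adjusted p = 0.0018). The ratios of summed reads were 8.71 (4.59 to 18.6) and 5.29 (3.35 to 8.72). With quantile normalization the call against bone marrow was lost (log2 fold change 1.18, adjusted p = 0.0896). Between blood and bone marrow the ratio was 0.607 (0.257 to 1.34), and the difference was not detectable at this depth (adjusted p = 0.459).

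Vegfb (ENSMUSG00000024962.12, chr19:6982473-6987651, minus strand), a ligand of Flt1, was the gene with the weakest data. It had 3, 18 and 14 reads in tumor, none in blood and 1, 3 and 2 in bone marrow. Tumor 1 at 0.483 RPM fell below bone marrow 2 at 0.530 RPM, so these groups overlapped, while tumor and blood did not. Against blood counted as 3 reads the level was 7.64-fold higher (limma-voom adjusted p = 0.00192). Against bone marrow the log2 fold change was 1.93 (SE 0.76, adjusted p = 0.0486), a call that was lost in 12 of 15 alternative fits, among them 8 of the 9 that left out a library, all but that without tumor 1 (log2 fold changes of 1.504 to 2.502 over the 9). Bone marrow was 1.5-fold higher than blood counted as 3 reads, on 6 reads in all, and was not called (limma-voom adjusted p = 0.176).

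Prok2 (ENSMUSG00000030069.14, chr6:99711299-99726392, minus strand) had 212, 138 and 195 reads in bone marrow, 59, 71 and 97 in blood and 97, 117 and 116 in tumor. All 3 bone marrow libraries, at 24.4 to 31.7 RPM, were above every blood library, at 12.7 to 20.7 RPM, and every tumor library, at 14.6 to 15.6 RPM. The tumor libraries lay within the range of the blood libraries. Means were 28.5 ± 3.73, 16.1 ± 4.12 and 15.2 ± 0.553 RPM in bone marrow, blood and tumor (SD, n = 3). By limma, Prok2 fell by 0.84 on the log2 scale from bone marrow to blood (SE 0.22, adjusted p = 0.015) and by 0.89 from bone marrow to tumor (SE 0.22, adjusted p = 0.00867). The call between blood and bone marrow was lost without a filter (adjusted p = 0.0506) and without bone marrow 1 (adjusted p = 0.0568), and by limma-voom also without blood 1 or blood 2 (adjusted p = 0.0505 and 0.101). The ratio of tumor to blood was 0.953 (0.802 to 1.13), with a log2 difference of -0.05 (SE 0.22, adjusted p = 0.855).

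The level of Prok2 in tumor depended on the scaling of the libraries. The authors' scaled library sizes were 0.796 to 0.882 times the recovered reads outside the tumor and 1.09 to 1.22 times these reads in tumor. With plain library totals the median log2 fold change of all tested genes between tumor and bone marrow moved from -0.21 to 0.25, and that of Prok2 from -0.89 to -0.44 (adjusted p = 0.152). Against blood the median moved from -0.17 to 0.28 and Prok2 from -0.05 to 0.40 (adjusted p = 0.18). The difference between blood and bone marrow stayed at -0.84 (adjusted p = 0.0218). The other 5 genes were higher in tumor than in both compartments under either scaling. For Vegfb against bone marrow, however, the call was lost in 12 of 15 alternative fits, as given above.

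**Figure D3:**
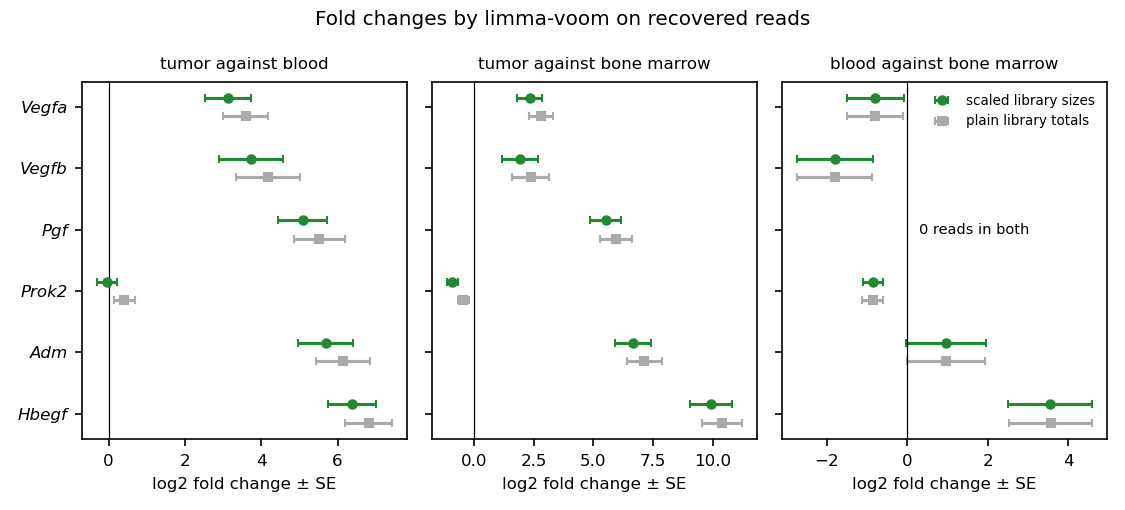
Log2 fold changes (x axis) with standard errors of the 6 genes in the 3 comparisons, from limma-voom on the recovered reads with the authors' scaled library sizes (green) and with plain library totals (grey). The other 5 genes lay above 0 in both tumor comparisons, and Prok2 changed sign between the scalings against blood; values against a group at 0 depend on the added constant.

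Per exon length, the order of the genes differed between compartments. In tumor, Hbegf was at 27.5 ± 4.73, Prok2 at 7.95 ± 0.289, Adm at 7.33 ± 2.71, Vegfa at 1.44 ± 0.307, Pgf at 1.23 ± 0.264 and Vegfb at 0.961 ± 0.603 RPM per exon kilobase (SD, n = 3). Hbegf stood above all others in each tumor library, whereas Prok2 and Adm overlapped, as did Vegfa, Pgf and Vegfb. In bone marrow and blood the order was led by Prok2 in every library, at 14.9 ± 1.95 and 8.40 ± 2.15, and each other gene was under 1 in each library. The 6 genes summed to 13.3 to 16.8 RPM per exon kilobase in bone marrow, while blood had 7.72 to 11.3 and tumor 41.2 to 55.7. Prok2 made up 95.7% to 98.2% of that sum in bone marrow, and its share was 85.9% to 95.4% in blood and 14.5% to 19.8% in tumor. Hbegf made up 59.1% to 59.5% in the tumor libraries.

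**Figure D4:**
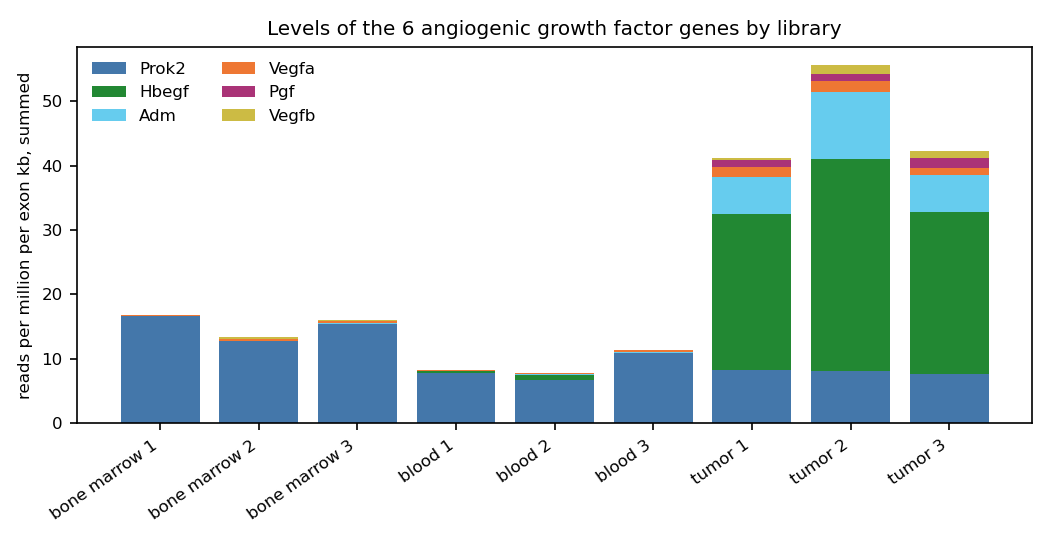
RPM per exon kilobase of the 6 genes, stacked from 0 in each library. Prok2 made up most of each bar in bone marrow and blood, and Hbegf made up 59.1% to 59.5% of the bar in the 3 tumor libraries.

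Within the tumor group, tumor 2 had the lowest summed level of the tumor epithelium markers, at 2812 RPM, and the highest RPM of Vegfa, Vegfb, Adm and Hbegf. Tumor 3 had the highest, at 5304 RPM, and the highest RPM of Pgf, at 4.41, and the lowest of Vegfa, at 4.78. Pgf had the same order of the 3 libraries as these markers, and the other 5 genes had another. Vegfa and Adm had the order of the summed macrophage markers, at 708, 768 and 509 RPM in tumor 1, tumor 2 and tumor 3. The endothelium markers had that order too, at 107, 125 and 86.2 RPM. For Adm this rests on a near tie, with 9.35 RPM in tumor 1 and 9.32 RPM in tumor 3. Vegfb, Prok2 and Hbegf had neither order. Per 100 epithelial marker reads, the tumor libraries held 2.29 to 5.66 Hbegf, 0.176 to 0.602 Adm, 0.090 to 0.263 Vegfa, 0.014 to 0.085 Vegfb and 0.083 to 0.103 Pgf reads. Per 100 fibroblast marker reads, they held 9.57 to 13.0 Hbegf, 0.733 to 1.39 Adm, 0.376 to 0.606 Vegfa, 0.043 to 0.195 Vegfb and 0.238 to 0.347 Pgf reads. With 3 libraries no test of this relation was run.

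The VEGF ligands outside the 6 genes, Vegfc and Figf, were scarce. With Vegfa, Vegfb and Pgf counted in, 4 of the 5 ligands were higher in tumor than in blood and 5 higher than in bone marrow by limma-voom. Their median log2 fold changes were 3.29 and 2.93, or 2.93 and 2.47 with genes at 0 in a group set to their bound, against 0.39 and 0.27 over all genes tested. Vegfb, Vegfc, Figf and Pgf reached 5 reads only in tumor libraries, so these counts and medians are no support for a trend. Vegfc, a lymphatic growth factor, had 6, 2 and 11 reads in tumor, 0, 3 and 3 in blood and none in bone marrow, and it was called against bone marrow (adjusted p = 0.00853) and not against blood (adjusted p = 0.353). Figf, which encodes VEGF-D, had 7, 4 and 12 reads in tumor and 2 reads in all other libraries together.

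The VEGF receptors, which endothelial cells carry, were higher in tumor than in blood for 5 of 5 genes and than in bone marrow for 4 of 5 (medians 3.28 and 2.98). Flt1, the receptor of Vegfa, Vegfb and Pgf, had 62, 146 and 169 reads in tumor, 2, 12 and 36 in blood and 9, 17 and 14 in bone marrow, a log2 fold change of 2.83 against blood (adjusted p = 0.00278 by limma-voom). Kdr had 48, 44 and 51 reads in tumor and at most 2 in any other library. Nrp1 departed from this order, with 373, 308 and 374 reads in bone marrow, 29, 31 and 7 in blood and 250, 219 and 408 in tumor. It was lower in blood than in bone marrow by limma-voom (log2 fold change -3.79, adjusted p = 5.13e-05), and its difference between tumor and bone marrow of -0.50 did not pass (adjusted p = 0.0951).

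The receptors of Prok2 did not share its order. Prokr1 had 35, 31 and 19 reads in blood, 14, 9 and 7 in tumor and 3, 0 and 5 in bone marrow. It was lower in tumor than in blood by limma-voom (log2 fold change -2.09, adjusted p = 0.0102) and higher in blood than in bone marrow (4.09, adjusted p = 0.00117). Prokr2 had 9, 14 and 10 reads in tumor and none elsewhere, and Prok1, the related ligand, had none in any library. Of the 4 genes of this list 3 were tested, with 1 higher and 1 lower in tumor than in blood and likewise against bone marrow.

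Of the receptor parts for adrenomedullin, Calcrl was lower in tumor while Ramp2 and Ramp3 were higher, as Adm was. Calcrl, the receptor core, had 285, 253 and 267 reads in bone marrow, 122, 95 and 105 in blood and 49, 77 and 74 in tumor. It was lower in tumor than in blood by 1.27 on the log2 scale (limma-voom adjusted p = 0.00155) and than in bone marrow by 2.21 (adjusted p = 7.63e-06). Ramp1, which turns Calcrl into a receptor for the related peptide CGRP, also differed, with log2 fold changes of -2.62 (adjusted p = 1.71e-05) and -3.30 (adjusted p = 1.38e-06). Ramp2 and Ramp3, the partners that make adrenomedullin receptors, had 5, 4 and 17 and 17, 6 and 23 reads in tumor, at most 4 in blood and none in bone marrow (limma-voom adjusted p = 0.00285 and 0.0212 against blood). The ligand Adm2 had 4, 6 and 4 reads in tumor and none elsewhere. In this list of 6 genes, Adm included, 4 were higher and 2 lower in tumor than in either other compartment. Adm, Adm2, Ramp2 and Ramp3 reached 5 reads only in tumor libraries, so this count is no support for a trend.

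Ligands of the EGF family were higher in tumor with Hbegf. Of 7 genes, Hbegf included, 6 were tested, and 5 were higher in tumor in both comparisons, with none lower. Their medians were 6.07 and 7.06, or 5.76 and 6.26 with genes at 0 in a group at their bound. Since Tgfa, Areg, Ereg and Btc reached 5 reads only in tumor libraries, these counts and medians are no support for a trend. Tgfa had 71, 116 and 183 reads in tumor and at most 3 in any other library, Areg had 52, 60 and 89 and at most 2, and Btc and Ereg had none outside the tumor. Btc had 129, 58 and 94 and Ereg 112, 22 and 113 reads in tumor, so tumor 2, the library with most Hbegf, had least of both. Egf had 16, 12 and 4 reads in tumor and was not called.

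Among the receptors and shedding enzymes of that family, Egfr, Erbb2, Erbb3 and the sheddase Adam12 were higher in tumor by limma-voom, and Erbb4, with 2 reads in all, was not tested. Adam12 had 22, 13 and 11 reads in tumor, none in blood and 0, 4 and 9 in bone marrow (adjusted p = 0.00233 and 0.0466). Egfr had 101, 55 and 54 reads in tumor and at most 3 in any other library, and Erbb2 had 191, 186 and 538 and at most 10. Adam17, the main sheddase of Hbegf, had 687 to 707 reads in the bone marrow libraries, 522 to 806 in those from blood and 673 to 982 in those from tumor and was not called (log2 fold change -0.28 against blood, adjusted p = 0.194 by limma-voom). Adam10 was not called either (-0.21, adjusted p = 0.421). Rhbdf2, which encodes the iRhom2 partner that carries Adam17 to the cell surface, was lower in tumor, with 554, 669 and 623 reads against 1161, 1424 and 1091 in blood. From blood to tumor it fell by 1.60 on the log2 scale (limma adjusted p = 3.95e-05). Of 8 genes 7 were tested, with 4 higher and 1 lower in tumor in both comparisons.

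**Figure D5:**
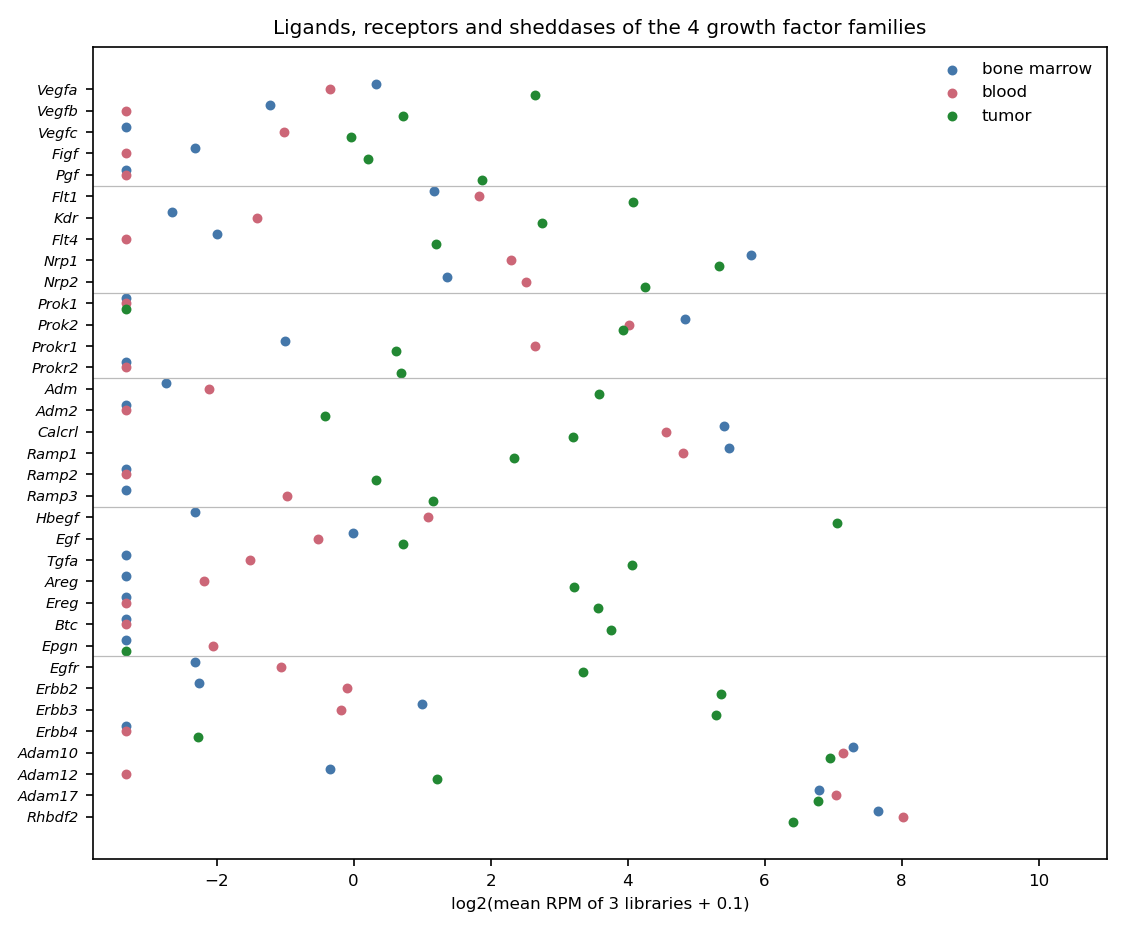
Mean RPM of 3 libraries plus 0.1 on a log2 axis for the ligands, receptors and sheddases of the 4 families, to be compared within a gene. Tumor had the highest mean for each of the VEGF and EGF ligands except Epgn, while Calcrl, Ramp1 and Rhbdf2 had their lowest mean in tumor.

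Other secreted regulators of vessels moved in the same direction as the 5 tumor-high genes in most cases. Of 19 other angiogenic factors, 13 were higher and 2 lower in tumor than in blood, and 16 higher and 2 lower than in bone marrow (limma-voom medians 4.31 and 4.12). Cyr61 and Ctgf, matricellular proteins of fibroblasts and epithelium among others, had 1500, 1502 and 2542 and 1442, 1091 and 2136 reads in tumor and at most 8 in any other library. Spp1, osteopontin, had 31560, 29196 and 47329 reads in tumor and at most 196 elsewhere. Angpt1 had its highest level in blood, with 63, 44 and 47 reads against 7, 16 and 9 in tumor, as platelet markers did at 861 to 1164 RPM in blood and 30.0 to 51.6 RPM in tumor. Hgf was lower in tumor than in blood by 1.97 (adjusted p = 0.000217).

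Genes that inhibit vessel growth were higher in tumor as well. Of 13 inhibitors 12 were tested, and 10 were higher and 1 lower in tumor than in blood, and 11 higher and 1 lower than in bone marrow (medians 6.04 and 5.83, or 5.4 and 5.0 with genes at 0 in a group at their bound). Thbs1, thrombospondin 1, rose from 1623, 2481 and 1985 reads in blood to 11157, 17351 and 9792 in tumor (limma log2 fold change 2.01, adjusted p = 0.000119). Adamts1 had 133, 170 and 194 reads in tumor and none in blood, and Timp1 had 82, 69 and 57 in tumor and none elsewhere. Spry2, an inhibitor of receptor tyrosine kinase signaling, was lower in tumor than in blood by 1.34 (limma adjusted p = 0.00474). Against bone marrow it was higher in tumor, by 1.64 (limma adjusted p = 0.00208). The inhibitor lower in tumor than in bone marrow was Timp2 (limma-voom log2 fold change -1.14, adjusted p = 0.00621).

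Regulators and targets of HIF are given because Vegfa and Adm are known among its targets. Of 15 HIF targets outside glycolysis, 12 were higher and 1 lower in tumor than in blood and 13 higher and 1 lower than in bone marrow (limma-voom medians 2.91 and 2.88). Car9 had 679, 667 and 1220 reads in tumor and at most 17 elsewhere. Mxi1 was lower in tumor than in blood by 1.06 (limma adjusted p = 0.00217). Of 8 HIF subunits and regulators, 4 were higher and 2 lower in tumor than in blood and 5 higher and 2 lower than in bone marrow. Egln3, a HIF-induced oxygen sensor, had 3079, 4900 and 2831 reads in tumor, 191, 504 and 264 in blood and 100, 126 and 110 in bone marrow, a limma log2 fold change of 2.95 against blood (adjusted p = 9.36e-05). Hif1a exceeded its bone marrow level in tumor by 1.04 (limma-voom adjusted p = 0.000135), and against blood its difference of 0.42 passed with limma-voom (adjusted p = 0.0422) and not with limma (adjusted p = 0.0684).

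Of the 9 proteases that can release VEGF from matrix, 7 were higher and 2 lower in tumor than in blood, and 6 higher and 2 lower than in bone marrow (limma-voom medians 3.65 and 1.73, the first 3.20 with genes at 0 in blood at their bound). The 2 that were lower were the neutrophil granule enzymes Mmp8 and Mmp9. Mmp9 had 101983, 93188 and 95731 reads in bone marrow, 32562, 50032 and 39070 in blood and 17069, 20975 and 19437 in tumor, and it fell by 1.68 on the log2 scale from blood to tumor (limma adjusted p = 7.75e-06). Mmp14 had 145, 196 and 477 reads in tumor and none in blood. Both Mmp8 and Mmp9 are also among the 12 neutrophil markers.

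The genes whose log2 FPKM was most like that of a member over the 9 libraries were listed among 7793 others as a description. For Prok2 they were H2afv, Smc4 and Ube2m (Pearson r = 0.960, 0.952 and 0.945), with 49 genes over 0.9. Smc4, a condensin subunit of mitotic chromosomes, had 987, 791 and 964 reads in bone marrow, 281, 399 and 392 in blood and 487, 585 and 567 in tumor. For Adm they were Fam71f2, Traf1 and Hnrnpu (0.998, 0.997 and 0.989), with 394 genes over 0.9. Fam71f2 had 218, 456 and 166 reads in tumor and, like Adm, at most 1 elsewhere. For Hbegf they were Ociad2, Cnbp and Tpm1 (0.988, 0.985 and 0.984), with 318 genes over 0.9. The libraries of a compartment share their compartment, so these values mostly describe 3 levels and carry no p.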

How the data were processed

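RNA of neutrophils sorted from bone marrow, blood and tumor of OT mice was converted to cDNA with the SMARTSeq v2 protocol, which does not mark strand, and sequenced in 9 libraries. Reads were aligned with STAR 2.5.2b to GRCm38 and counted with featureCounts 1.5.0 on GENCODE M7 genes. The deposited values are log2 FPKM, which the authors computed with scaled library sizes and about 0.25 reads added to each count before the log. Pools came from separate experiments, and p-values measure the spread between these libraries. Intervals and floors cover counting error only, since PCR reads are not independent molecules.

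From the step size of low values, whole reads could be computed back at a tolerance of 1e-05 for 46517 of 46517 genes. The recovery and the fits were tested on simulated data. Contrasts between compartments were tested on log2 FPKM (7794 genes) by the lmFit and trended eBayes functions of limma 3.58.1, run in R 4.3.3, and with limma-voom on recovered reads (17714 genes), each with Benjamini-Hochberg adjustment over all genes tested at a threshold of 0.05. Exact two-sided permutation tests of single genes, 3 libraries against 3, cannot go below 0.1 and were used only to describe overlap. Ratios are of summed reads per scaled library size with 95% exact (Clopper-Pearson) intervals, and a group at 0 was set to 3 reads over the group. The bound from this floor leaves out the counting error of the group with reads. In list medians at their bound, genes with both groups at or under that floor were set to 0. Positions and exon lengths are from GENCODE M21 on GRCm38, and promoter bases are from RefSeq on GRCm38.p6. The named genes were the 6 members, list genes with the largest changes and receptors of the members, and the 3 genes most correlated with a member. Vegfc, Egf, Areg, Adam10, Adam17, Rhbdf2, Angpt1, Hgf, Thbs1, Spry2, Timp2, Hif1a, Mxi1, Mmp8, Mmp9 and the marker genes named were chosen after their values were seen. The authors describe the bone marrow, blood and tumor neutrophils as coming from the same mouse, and the main fits did not model a pairing. Correlations of deviations of same-numbered libraries were -0.071 to 0.108. With 3 libraries per compartment they cannot show whether the replicate numbers pair the libraries. A fit with the replicate number as a block is given below. The members and lists were chosen with earlier results of these data known. Some items are not reported here.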

Additional observations from a re-analysis of the deposited data

How the results depend on the processing

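Of 385 alternatives over the 6 genes, the member counts and the promoter matches, 352 were rated as kept. For a single gene this meant the same direction and side of the threshold. Counts could shift and still be rated as kept, as from 3 to 2 members or from 28 to 27 promoter matches. The number of members called changed with the filter, which set how many members were tested. For tumor against blood it was 2 with the filter, 5 without it, 5 with the filter on reads and 5 by limma-voom. For tumor against bone marrow it was 3, 5, 6 and 6. It fell to 2 there with the stricter filter, with plain library totals and when calls also had to reach a log2 change of 1 in size. For blood against bone marrow it fell from 2 to 1 without the filter, with the stricter filter, with a pseudocount of 1 and with that log2 change required. It also fell to 1 without bone marrow 1 (1 to 2 leaving out each library), while it was 3 with the filter on reads and 2 by limma-voom. The cause of the following changes was not tested. Prok2 between tumor and blood changed sign with plain library totals (0.40, adjusted p = 0.18) and without blood 3 (0.14), in a leave-one-out range of -0.21 to 0.14. Prok2 between tumor and bone marrow lost its call with plain library totals (-0.44), and between blood and bone marrow it lost it without the filter (-0.84, adjusted p = 0.0506) and without bone marrow 1 (-0.76, adjusted p = 0.0568), in a range of -1.04 to -0.69. Hbegf between blood and bone marrow lost its call without the filter (4.24) and with a pseudocount of 1 (0.22). Vegfa between tumor and bone marrow lost its call with quantile normalization (1.18, adjusted p = 0.0896). Vegfb between tumor and bone marrow lost its call in the limma fit without a filter (2.00, adjusted p = 0.130), with quantile normalization (0.25, adjusted p = 0.822), with only the 2 compartments (1.94) and in 8 of 9 leave-one-out fits (1.504 to 2.502). With the replicate block it was 1.94 (adjusted p = 0.0529), and the block changed no other call of a member. Vegfb between blood and bone marrow gained a call in limma without a filter (-3.18, adjusted p = 0.0374) and with that on reads (-3.18, adjusted p = 0.00975). The stricter filter left out Prok2, and pseudocounts, median centring and the limma settings were not run for Vegfa, Vegfb and Pgf, which were not in that fit. Depth limits Vegfb, Pgf and Adm outside the tumor, where at most 3 reads were found in a library.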
